A study of Schizosaccharomyces pombe with 4 samples.

Results

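The nuclear genes for subunits of the respiratory chain and the ATP synthase of fission yeast (Schizosaccharomyces pombe) were described in 31 genes of the 7092 in the deposited expression table. They were taken by name from the table's gene column and cover complex II (4 sdh genes), complex III with cytochrome c (10 genes), complex IV (8 cox genes) and complex V, the ATP synthase (9 atp genes). All 31 were tested by the authors, and all 31 passed a filter of at least 1 FPKM (fragments scaled to transcript length and library size) as the mean of both groups.

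RNA was sequenced in 4 libraries of homothallic (h90) cells with ade6, leu1 and ura4 markers, with ura4+ in place of pcr1. The empty plasmid pREP41 was carried by 2 libraries, and pREP41-Atf1 by the other 2. Pcr1 is the usual partner of the stress transcription factor Atf1, and the plasmid drives its insert from a promoter that thiamine represses. Per the labels, cells grew at 30 °C overnight in minimal medium with 20 µM thiamine and then for 24 h without it. Each gene has a single pooled FPKM per group, which leaves no spread between libraries to report, and calls rest on the authors' Cuffdiff q-value under 0.05. No label states separate cultures for libraries of the same group, so the spread behind the authors' p-values may be technical.

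The genotype's own genes went against the labels. For atf1, 54.4 FPKM was read under the Atf1 label and 60.9 FPKM under the vector label. For the deleted pcr1 the values were 66.4 and 35.8 FPKM, and the marker ura4 was listed at 0 under the Atf1 label but had 124.8 FPKM under the vector label. Among these genes only ura4 was called by Cuffdiff (q = 0.00809), with q = 0.997 for atf1 and q = 0.774 for pcr1. The ura4 value under the vector label goes with the ura4+ marker, and the 0 under the Atf1 label does not. Each direction given here is therefore between the library labels. Structural RNAs such as rRNA and snoRNA moved with the label too: 46 of 49 tested nuclear ones were higher in the libraries labelled Atf1, with a median difference of 2.72 on the log2 scale. Their part in the results was not tested.

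Respiration passes electrons from succinate (complex II), NADH and other donors through coenzyme Q to complex III, cytochrome c and complex IV, which reduces oxygen. Complexes III and IV pump protons across the mitochondrial inner membrane, and the ATP synthase uses the return flow to make ATP. Fission yeast lacks the proton-pumping complex I. Most subunits are nuclear genes, while a small set of core subunits is made from the mitochondrial genome. Fission yeast ferments glucose, and genes of respiration are under glucose repression and under the Php complex, which binds CCAAT boxes.

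All 31 genes were strongly expressed under both labels. Levels ran from 197 FPKM (cox6) to 2105 FPKM (atp2) in the libraries labelled Atf1, with a median of 435 FPKM. In the libraries labelled vector they ran from 181 FPKM (atp1) to 1322 FPKM (qcr8), with a median of 325 FPKM. Differences below are log2(FPKM + 1), Atf1 label minus vector label, a scale that slightly understates fold changes. By the authors' scaling, 25 of the 31 genes were higher with the Atf1 label and 6 were lower. With median-of-ratios scaling 28 were higher, but with equal FPKM totals in both groups 15 were, and with quantile normalization 10 were. The 31 genes summed to 1.48% of the FPKM total under the Atf1 label and to 1.42% under the vector label. More RNA per cell and more cells with this RNA cannot be told apart in such bulk samples.

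The authors' deposited table calls 0 of the 31 genes at a q-value under 0.05 from Cuffdiff. Of the other 371 protein-coding genes with a mean FPKM in the members' range, 18 were called higher and 1 lower. Of 4965 tested nuclear protein-coding genes, 1.71% were called higher and 0.0806% lower. At an unadjusted p under 0.05, 4 of the 31 were higher (sdh3, sdh4, cox7 and cox13) and 0 were lower, where 6.3% of those protein-coding genes were higher and 4.83% lower. Among the 402 protein-coding genes at the members' level 20.9% were higher at that p, a larger share than in the members. At least 2-fold higher were 10 of the 31, against 11.4% of the protein-coding genes, and 0 were at least 2-fold lower, against 14.1%. The 31 genes also lie at higher levels than most protein-coding genes.

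By the authors' scaling the differences moved with the level of a gene among protein-coding genes. The median difference was -0.53 for 1166 genes with a mean of 1 to 10 FPKM, -0.41 for 1710 genes of 10 to 30 FPKM and -0.07 for 1215 genes of 30 to 100 FPKM. It was 0.65 for the 402 genes within the range of the 31 members (194 to 1563 FPKM) and 0.47 for 157 genes above it. With quantile normalization the other genes in the members' range had a median of -0.20, against -0.27 for all protein-coding genes. Of the other 371 protein-coding genes in that range, 80.6% were higher with the Atf1 label, and of the 31 members 80.6% were higher too. The median difference was 0.65 in both. At least 2-fold higher were 34.3% of the genes of that range and 32.3% of the members. When the range was taken from the vector column alone, the other genes had a median difference of 0.40 against 0.65 in the members. Taken from the Atf1 column alone, it was 0.71. Against genes of like mean level, the respiratory genes as a set therefore had differences of about the same size.

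**Figure D1:**
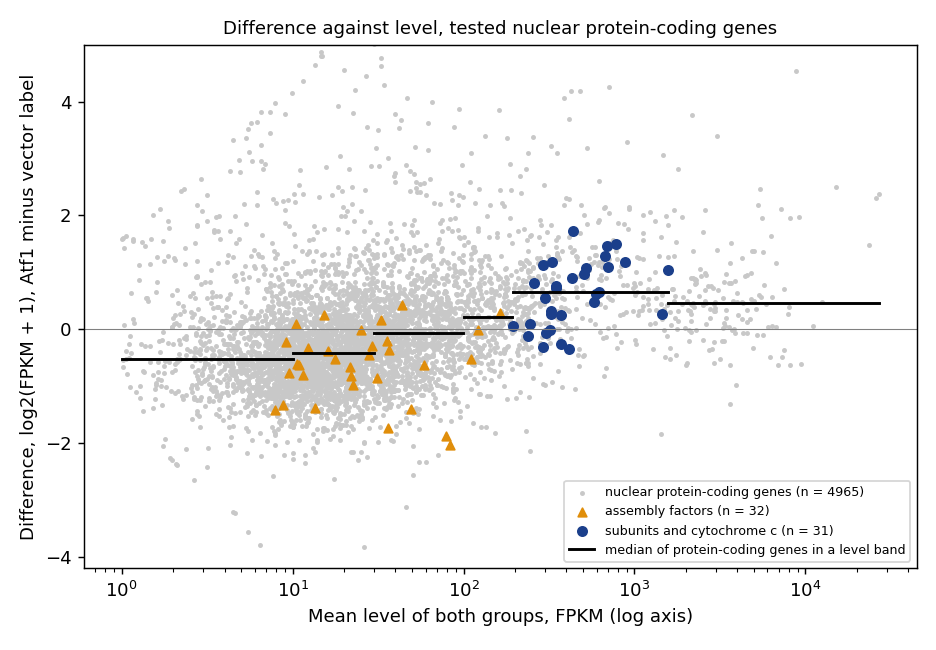
Difference (log2(FPKM + 1), Atf1 label minus vector label) against the mean FPKM of both groups (log axis) for 4965 tested nuclear protein-coding genes (grey), 31 subunit and cytochrome c genes (blue) and 32 assembly factor genes (orange triangles), with 26 genes outside the plotted range; black lines give the median of protein-coding genes in each band of level. The blue points lie around the line at 0.65, and most triangles lie below 0, under the authors' scaling.

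Complex II, succinate dehydrogenase, oxidizes succinate in the tricarboxylic acid cycle and hands the electrons to coenzyme Q. Of its 4 genes, 3 were at least 2-fold higher with the Atf1 label, and the median difference was 1.27 (0.61 with equal totals, 0.23 with quantile normalization). The membrane anchor gene sdh4 (SPBP23A10.16, chromosome II 2035906-2036579 in ASM294v2) was at 677 FPKM under the Atf1 label against 203 FPKM with the vector label. This 3.33-fold difference was the largest of the 31 and lay above those of 95.2% of tested protein-coding genes. The authors' deposited table gives it p = 0.0022 and q = 0.131, so it was not called.

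The other anchor gene, sdh3 (SPCC330.12c, chromosome III 135724-137783), was at 1011 and 367 FPKM, a 2.76-fold difference with q = 0.526 in the authors' deposited table. Its locus in the table holds 3 genes, so its value is uncertain. The flavoprotein gene sdh1 (SPAC1556.02c, chromosome I 3796280-3798526) was at 704 and 332 FPKM. The iron-sulfur subunit gene sdh2 (SPAC140.01, chromosome I 1895436-1896752) went the other way, at 337 FPKM under the Atf1 label against 404 FPKM with the vector label. The genes sdh1, sdh3 and sdh4 kept a difference above 0, and sdh2 one below 0, under each of the scalings tried. The subunits of this complex thus differed in sign, and the smallest q of the 31 in the authors' deposited table was that of sdh4.

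Complex III passes electrons from coenzyme Q to cytochrome c. Its 10 genes, cytochrome c included, had a median difference of 0.37, with 7 higher and 3 lower with the Atf1 label (4 higher with equal totals, 2 with quantile normalization). The Rieske iron-sulfur protein gene rip1 (SPBC16H5.06, chromosome II 2286917-2290445) was at 459 and 203 FPKM, a 2.26-fold difference, in a locus of 2 genes. The cytochrome c gene cyc1 (SPCC191.07, chromosome III 1714660-1715798), whose product carries electrons to complex IV, was at 953 and 446 FPKM, a 2.14-fold difference. The authors' deposited table gives q = 0.941 for rip1 and q = 0.826 for cyc1.

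The large core subunit genes of complex III were 1.97-fold (qcr1) and 1.76-fold (qcr2) apart. The gene qcr1 (SPBP23A10.15c, chromosome II 2032842-2034943), annotated in the table as a probable mitochondrial processing peptidase subunit, was at 675 FPKM under the Atf1 label against 342 FPKM with the vector label. It is the neighbour of sdh4 on the opposite strand. The gene qcr2 was at 329 and 187 FPKM, in a locus of 2 genes. The cytochrome c1 gene cyt1, whose product carries haem, went the other way (SPBC29A3.18, chromosome II 2073253-2074742), at 263 FPKM under the Atf1 label against 325 FPKM with the vector label. So the catalytic genes of 1 complex, rip1 and cyt1, had differences of opposite sign by the authors' scaling.

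By the authors' scaling the small subunit genes of complex III were closer between the labels. The gene qcr8 had the highest level of the complex, at 1587 and 1322 FPKM, in a locus of 3 genes. The gene qcr10 was at 673 and 485 FPKM and qcr9 at 402 and 339 FPKM, in loci of 4 and 2 genes. The gene qcr7 was at 299 and 313 FPKM in a locus of 5 genes, and qcr6 (SPBC16C6.08c) at 363 and 464 FPKM, the lowest difference of the 31 (-0.35). All 5 were lower with equal totals, from -1.01 for qcr6 to -0.19 for qcr10, and with quantile normalization, from -1.40 for qcr6 to -0.51 for qcr8. The authors' deposited table gives p = 0.511 for qcr6.

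Complex IV, cytochrome c oxidase, reduces oxygen, with a core of mitochondrially encoded subunits and a shell of nuclear ones. All 8 nuclear genes were higher with the Atf1 label, with a median difference of 0.69. With median-of-ratios scaling 8 were higher, with equal totals 4 and with quantile normalization 3. The small subunit gene cox7 (SPBC2F12.17, chromosome II 1715140-1715436) was at 1148 and 406 FPKM, a 2.83-fold difference with p = 0.0211 and q = 0.455 in the authors' deposited table. The gene cox13 (SPCC1739.09c, chromosome III 2046412-2047407) was at 962 and 393 FPKM, with p = 0.0327 and q = 0.556 in the authors' deposited table. Both lie alone in their locus, and neither was called.

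The gene cox4 (SPAC1296.02, chromosome I 711238-714070) was at 1216 and 538 FPKM, a 2.26-fold difference in a locus of 2 genes. Between the 1.46-fold of cox9 and the 1.66-fold of cox8 lay 4 genes, namely cox8 (435 and 262 FPKM), cox12 (761 and 485 FPKM), cox5 (726 and 471 FPKM) and cox9 (355 and 244 FPKM). Of these, cox9 lies alone in its locus. The gene cox6, the lowest of the complex, was almost level at 197 and 191 FPKM. The shell subunits of complex IV thus ran from level to nearly 3-fold apart within a single complex.

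**Figure D2:**
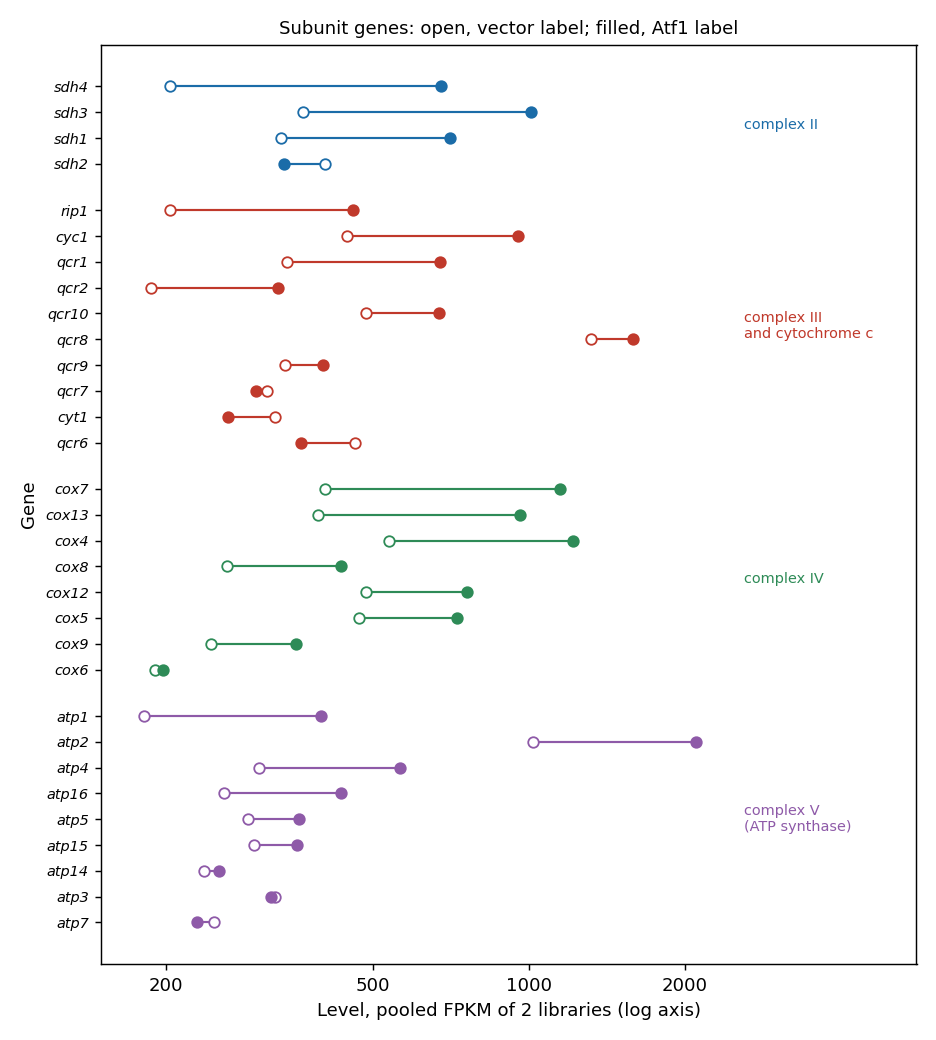
Level of each of the 31 genes in pooled FPKM (log axis) for the libraries labelled vector (open circles) and Atf1 (filled circles), grouped by complex and ordered by difference. The filled circle lies to the right in 25 genes and to the left in sdh2, qcr6, cyt1, qcr7, atp7 and atp3. With equal FPKM totals it would lie to the right in 15, and with median-of-ratios scaling in 28.

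The ATP synthase has a catalytic head, whose alpha and beta subunits (atp1 and atp2) hold the nucleotide sites, a rotating stalk (atp3, atp15 and atp16 for gamma, epsilon and delta) and a peripheral stalk (atp4, atp5, atp7 and atp14). Its 9 genes had a median difference of 0.33, with 7 higher and 2 lower with the Atf1 label (4 higher with equal totals, 2 with quantile normalization). The beta subunit gene atp2 (SPAC222.12c, chromosome I 968507-970412) had the highest level of the 31 with the Atf1 label, 2105 FPKM, and 1022 FPKM with the vector label. The alpha subunit gene atp1 (SPAC14C4.14, chromosome I 5256722-5265104) was at 398 and 181 FPKM, in a locus of 3 genes. Both head genes were thus at least 2-fold higher, with q = 0.967 for atp2 and q = 0.958 for atp1 in the authors' deposited table.

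By the authors' scaling the stalk genes were closer between the labels than the head genes. The gamma gene atp3 was at 319 and 324 FPKM, in a locus of 2 genes. The epsilon gene atp15 was at 358 and 296 FPKM and the delta gene atp16 at 435 and 258 FPKM. In the peripheral stalk, atp4 was at 565 and 302 FPKM, in a locus of 6 genes. The gene atp5 was at 361 and 287 FPKM. In loci of 2 and 5 genes, atp7 was at 229 and 248 FPKM and atp14 at 252 and 237 FPKM. Among these 7 stalk genes, atp4 (1.87-fold) and atp16 (1.69-fold) had the highest ratios. With equal totals the other 5 were lower with the Atf1 label, down to -0.77 for atp7, while atp1 and atp2 stayed higher at 0.47 and 0.38. With quantile normalization the lowest was atp3 at -0.87, and atp1 and atp2 were at 0.44 and 0.22.

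Levels under the labels and the differences were described across the 31 genes. The vector level and the Atf1 level had a Spearman rho of 0.66 over the 31 genes. The difference had a rho of 0.02 with the vector level and of 0.04 with protein length. It had a rho of 0.53 with the mean level and of 0.72 with the Atf1 level. The vector, mean and Atf1 levels all hold values that are part of the difference, which affects these rhos. The SD of log2 FPKM over the 31 genes was 0.86 under the Atf1 label against 0.65 under the vector label. The genes thus lay farther apart from each other in level with the Atf1 label, and the difference had almost no rank relation to protein length. The spread of other genes was not computed, so the wider spread is not shown to be particular to the 31. All these points share the same pooled libraries. None of the 31 had a copy at 95% identity over 50% of the gene elsewhere in the genome. The 15 genes alone in their locus had a median difference of 0.75, and the 16 that share one had 0.64.

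CCAAT boxes were counted upstream of the 31 genes because the Php complex binds this motif in genes of respiration. RefSeq's ASM294v3 annotation and sequence were used, in the 300 bases before each annotated transcript start. The motif CCAAT on either strand was present in 22 of 31 windows (71.0%), in 41.0% of 5112 windows of protein-coding genes and in 41.8% of those of the other 371 genes at the members' level. It was present in 4 of 4 windows of complex II, 9 of 10 of complex III with cytochrome c, 3 of 8 of complex IV and 6 of 9 of complex V. Of the 10 genes at least 2-fold higher, 9 held it, and of the other 21 genes 13 did. The 6 letters TGACGT, part of the site that Atf1 binds, were present on either strand in 1 of 31 windows, that of rip1, in 6.0% of all windows and in 11.1% of those of the other genes at the members' level. These 2 motifs do not overlap each other in sequence. A match is a description of letters and does not show binding, and no match says only that the letters are not in this window.

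**Figure D3:**
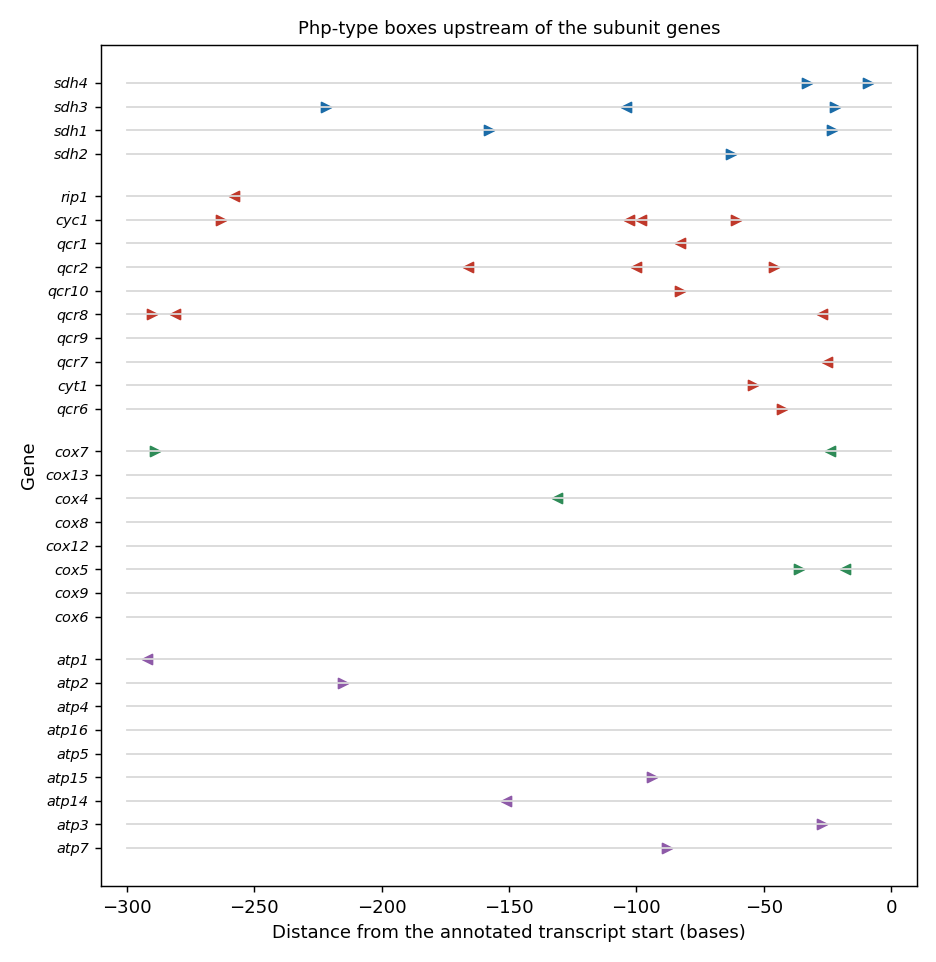
Positions of CCAAT boxes in the 300 bases upstream of the annotated transcript start (x axis, bases) of the 31 genes, coloured by complex and ordered by difference within it; arrowheads give the strand relative to the gene, and each row is a gene. Of 35 boxes, 20 lie on the gene's strand and 15 on the other, and the nearest box lies within 100 bases of the start in 17 of 22 genes.

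The boxes are shown for the genes at least 2-fold higher and for the 3 genes with the lowest differences, since both kinds hold them. Each line gives the nearest box with 10 bases on either side inside the window, 5′ to 3′ on the strand where it reads CCAAT, with the box in capitals. The nearer of the 2 boxes of sdh4 lies too close to the transcript start to be shown with its flank. The box of atp1 lies too near the window's edge to be shown, and cox13 has none. The annotated starts of RefSeq and of the deposited table differ, and those shown for sdh4, sdh3, sdh1, rip1 and qcr6 lie inside the table's locus.
sdh4, chrII:2036013-2036037, + strand: tgttgaatggCCAATaatgtggaca
cox7, chrII:1715558-1715582, + strand: attgatggttCCAATtagtacatct
sdh3, chrIII:136660-136684, - strand: aaaatatcttCCAATaacatactgc
cox4, chrI:711090-711114, - strand: tggggaagttCCAATattactattg
rip1, chrII:2290361-2290385, + strand: ctttcaaattCCAATattatggtac
cyc1, chrIII:1714547-1714571, + strand: agctcatgaaCCAATgaaataaggg
sdh1, chrI:3798475-3798499, - strand: taagagatgcCCAATtaccaaagct
atp2, chrI:970605-970629, - strand: ataacttactCCAATgccctagctc
sdh2, chrI:1895354-1895378, + strand: ttttctgccgCCAATaaaattgatt
cyt1, chrII:2073168-2073192, + strand: ttcctgtatgCCAATtatcgtcggg
qcr6, chrII:4345574-4345598, - strand: caaatgcggaCCAATatagcgaacg

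The box of sdh4 (3.33-fold higher) shown lies 33 bases from the transcript start, with another at 9 bases, and that of qcr6 (0.78-fold) lies 43 bases from it. A box near the start was thus present at both ends of the order of differences. Of 6 regulator genes, 3 had the higher value with the Atf1 label by the authors' scaling and 0 were called. The Php subunit genes were close between the labels by that scaling, with php2 at 25.0 and 32.0 FPKM and php3 at 149 and 128 FPKM. The gene php4 was at 38.0 and 32.3 FPKM and php5 at 36.6 and 42.1 FPKM. The zinc finger repressor gene scr1, which acts in glucose repression, was at 24.6 FPKM under the Atf1 label against 9.40 FPKM with the vector label, with q = 0.275 in the authors' deposited table. The zinc finger gene rsv1 was near the filter in both, at 0.84 and 2.22 FPKM.

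Genes for assembly of the complexes lie at lower levels, and by the authors' scaling most had the lower value with the Atf1 label. The contrast in sign with the subunits depended on the scaling. Of the 31 subunit genes, 16 were also lower with equal totals, 20 with quantile normalization and 3 with median-of-ratios scaling. The medians of the subunit and assembly genes were -0.012 and -1.20 with equal totals. That scaling multiplies each group by a single factor, so it could hardly change the gap between the medians. The medians were closer with quantile normalization (-0.21 and -0.42). Of 32 tested assembly factors, 27 were lower with the Atf1 label and 5 were higher, with a median difference of -0.57 and 0 called. At an unadjusted p under 0.05, 2 were lower in the authors' deposited table (mzm1 and atp25), where 5.74% of other protein-coding genes at their level were. With equal totals 32 were lower, with quantile normalization 27 and with median-of-ratios scaling 25. Among the 4965 tested nuclear protein-coding genes these counts were 4061, 3151 and 2683. Higher with the Atf1 label were 0 of 3 factors of complex II, 0 of 6 of complex III, 5 of 17 of complex IV and 0 of 6 of complex V, while coa3 was listed at 0 in both groups and not tested. Other protein-coding genes within the assembly factors' range of levels (7.90 to 163 FPKM) had a median difference of -0.27, and 36.1% of them were higher. The level of a gene moves with these differences as it does for the subunits, and its part was not tested.

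For complex II, the flavin assembly factor gene emi5 was at 33.3 FPKM under the Atf1 label against 125 FPKM with the vector label. Its locus holds 5 genes. The gene sdh7 was at 6.73 and 12.2 FPKM in a locus of 3 genes. For complex III, the gene mzm1, whose counterpart in budding yeast helps insert the Rieske protein, was at 32.0 and 134 FPKM. This 4.19-fold lower value was the largest of the assembly factors, with p = 0.0032 and q = 0.165 in the authors' deposited table. The gene cbp6, whose counterpart in budding yeast acts in cytochrome b synthesis, was at 26.4 and 71.7 FPKM in a locus of 7 genes. For complex IV, cmc2 was at 16.0 and 55.8 FPKM and pet117 at 7.0 and 20.0 FPKM, in loci of 3 and 2 genes. For complex V, atp10 was at 3.83 and 12.0 FPKM and atp25 at 4.61 and 13.0 FPKM, both in loci of 2 genes. In complex III, rip1 and mzm1 thus had differences of opposite sign by the authors' scaling. Another assembly gene of that complex, bcs1, was almost level at 25.2 and 25.3 FPKM.

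**Figure D4:**
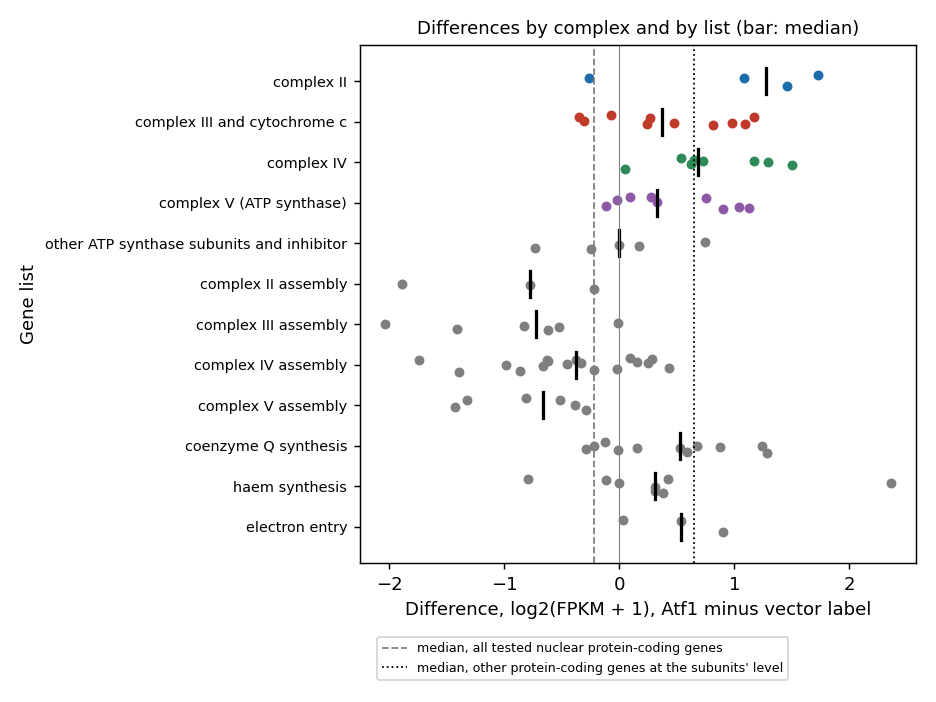
Difference (log2(FPKM + 1), Atf1 label minus vector label, x axis) of each tested gene of the 4 complexes and of 8 other lists of the pathway; bars give medians, the dashed line the median of all tested nuclear protein-coding genes and the dotted line that of the other genes at the subunits' level. Subunit medians run from 0.33 to 1.27 and assembly medians from -0.78 to -0.37 by the authors' scaling; gut2, listed at 0 with the vector label, is left out.

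The other ATP synthase subunit genes, which are not among the 31, were close between the labels, with a median difference of -0.005 over 5 genes by the authors' scaling. It was 0.12 with median-of-ratios scaling, -0.67 with equal totals and -0.94 with quantile normalization, with 4 of 5 genes lower in the last 2. The inhibitor gene inh1, whose product blocks ATP hydrolysis, was at 292 and 174 FPKM. The subunit gene atp19 was at 113 and 189 FPKM, in a locus of 2 genes.

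All 4 genes that feed electrons in had the higher value with the Atf1 label by the authors' scaling, with 0 called, and ura3 was almost level at 140 and 137 FPKM. With equal totals ura3 and nde2 would have the lower value under that label. The NADH dehydrogenase gene nde1 was at 144 and 76.6 FPKM, in the locus of 7 genes that also holds cbp6. The gene nde2 was at 456 and 314 FPKM in a locus of 4 genes, so the values of nde1 and nde2 are uncertain. The glycerol-3-phosphate dehydrogenase gene gut2 was at 164 FPKM under the Atf1 label against listed at 0 with the vector label. It was not called, and its locus holds 5 genes, so its value is uncertain.

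Coenzyme Q synthesis genes had a median difference of 0.53, with 7 of 11 higher and 0 called. With equal totals 4 were higher, with quantile normalization 8 and with median-of-ratios scaling 8. The gene coq9 was at 190 and 77.5 FPKM, with p = 0.0176 in the authors' deposited table. The gene coq7, for a hydroxylase of the pathway, was at 396 and 167 FPKM in a locus of 2 genes. Coq9 and Coq7 act together in other species. Other protein-coding genes within their range of levels had a median of -0.24. Haem synthesis genes had a median of 0.31, with 5 of 8 higher and 0 called. With equal totals 1 was higher, with quantile normalization 3 and with median-of-ratios scaling 7. Among the haem synthesis genes, hem14 was at 5.97 and 0.35 FPKM and the ferrochelatase gene hem15 at 14.9 and 26.6 FPKM. Both lie in loci of 3 genes.

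The ADP/ATP carrier gene anc1, which exchanges the product of the ATP synthase with the cytosol, was at 1122 FPKM under the Atf1 label against 380 FPKM with the vector label, in a locus of 3 genes. This 2.96-fold difference had p = 0.0176 and q = 0.417 in the authors' deposited table and remained above 0 under each of the scalings tried. The partner subunits from the mitochondrial genome were higher with the Atf1 label in 5 of 6 tested genes under each of the scalings tried, with 0 called. Among them cox1 was at 34.2 and 5.39 FPKM (q = 0.0772 in the authors' deposited table), in a locus of 3 genes, and atp9 at 79.3 and 6.90 FPKM. Values of the 6 with the vector label were low, from 1.15 FPKM for cob1 to 6.90 FPKM for atp9, which limits precision. Their median difference was 1.88 by the authors' scaling. Nuclear structural RNAs moved the same way, with a median of 2.72, while 39.9% of tested nuclear protein-coding genes were higher. A shared cause was not tested.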

How the data were processed

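Per the submitters' processing notes, HISAT2 and Cuffdiff were used on ASM294v2, with neither version given in the sources used here. Per the labels' protocols, RNA was taken with Trizol and libraries were made with a stranded mRNA kit. The authors deposited FPKM, pooled per group of 2 libraries, identical in both tables for 7092 genes. The authors also deposited p-values and q-values from Cuffdiff, with the scaling of the groups not given in the sources used here. A planned limma fit needs values per library and was not run, so no test was computed here. No counts were given, so depth is unknown.

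Genes with status OK and a mean of at least 1 FPKM were kept, which left 6219 genes, 4965 of them nuclear and protein-coding by RefSeq's annotation. A pseudocount of 1 was used. The members, the lists and the motifs were chosen with earlier results of these data known. All 31 members are described. Of each other list, the genes called or else the 2 with the largest differences are named. The php genes, nde2, ura3, coa3, bcs1 and cob1 were added after their values were seen. Of 119 list symbols, 12 had no single match. Promoter windows came from ASM294v3, in which 98.7% of 5106 genes had a coding boundary at the coordinate of the deposited table. The calculations of scaling were run on simulated data with a flat factor between the groups. Results were checked without scaling, with median-of-ratios scaling and with quantile normalization, but not with equal totals. The simulated noise did not move with level, whereas the real differences did. Python 3.11.15, numpy 2.4.6, pandas 2.3.3, scipy 1.17.1, matplotlib 3.10.9 and BLAST+ 2.17.0 were used. Alternatives were pseudocounts of 0.1 and 5, other filters, 3 scalings and genes alone in their locus.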

Additional observations from a re-analysis of the deposited data

How the results depend on the processing

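No paired analysis was possible because each group has 1 pooled value. Leaving out libraries was not run for the same reason. Medians moved by under 0.1 with pseudocounts of 0.1 and 5, with no filter and with a mean of at least 10 FPKM. Median-of-ratios scaling gave 12 genes at least 2-fold higher and 0 lower. Under it the medians of the 31 genes and of complexes II, III, IV and V were 0.78, 1.40, 0.49, 0.81 and 0.45. With quantile normalization they were -0.21, 0.23, -0.58, -0.12 and -0.47, with 0 genes at least 2-fold higher and 3 lower. With equal FPKM totals they were -0.012, 0.61, -0.29, 0.0275 and -0.33, with 1 gene at least 2-fold higher and 1 lower. Equal totals moved the median of protein-coding genes from -0.22 to -0.83, and median-of-ratios scaling moved it to -0.10. The median of the 31 genes stood 0.87 above that of all protein-coding genes, and 0.0607 above it with quantile normalization. It stood 0.003 above that of genes at the members' level, and 0.24 above it with the level taken from the vector column, a choice made after seeing the data. Genes alone in their locus, also those without a near-identical copy, gave 0.75 in all and 1.08, 0.92 and 0.54 in complexes II, IV and V, with 6 genes at least 2-fold higher, fewer because 15 genes were left. At an unadjusted p, 4 genes passed in place of 0. Otherwise the cause was not tested. For assembly factors at low FPKM, the unknown depth limits precision.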
